A study of Mus musculus with 4 samples.

Results

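The hedgehog genes described here are Ptch1, the receptor, Gli1, a transcription factor that is also a target gene, and Cdon, a co-receptor. Their regions were chosen from the deposited table of H3K27ac peaks: every peak listed under these 3 symbols, and any peak of another gene that lay inside them or within 20 kb. This gave 13 of 4088 peaks, namely 9 of Ptch1, 2 of Gli1, 1 of Cdon and 1 of Mars1, a neighbour of Gli1. Having a listed peak was therefore part of the choice, and peak counts, pileups, folds and q values at these loci are descriptions, with no test. The folate-deficient cells (FA0, 0 mg/L folate) and the cells given the same medium with folate (FA4, 4 mg/L) were cultures of the same Sv129 mouse embryonic stem cell (mESC) line, both in serum-containing medium with leukemia inhibitory factor, and serum can itself carry folate. The study asked whether folate deficiency alters histone H3 lysine 27 acetylation (H3K27ac) at Sonic hedgehog genes, and it made 1 immunoprecipitated (IP) library and 1 input library for each condition, 4 in all. The table holds regions where 1 IP library stood above the other, and it was read as FA4 above FA0. No column says so. That order was inferred from how the study names the same promoter peaks, while its text states the opposite direction in words, and reversing the order would reverse all differences below. A region higher in FA0 could not appear in the table.

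Hedgehog ligands bind Ptch1 at the cell surface and so free Smo, the membrane protein that Ptch1 restrains, which lets Gli transcription factors act on their target genes. Ptch1 and Gli1 are themselves targets, and their activity is a common readout of the pathway, while Cdon binds the ligand alongside Ptch1. In the embryo the pathway patterns the ventral neural tube. H3K27ac marks active promoters and enhancers, so its amount near a gene reports on the regulatory DNA there and not on the RNA.

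For each peak the table gives the pileup, which is the number of FA4 fragments stacked at the summit, and the fold, which is FA4 over FA0 and so exceeds 1 where FA0 was lower. The fold was deposited as pileup plus 1 over local background plus 1, and the FA0 background, recovered here from these values, is the fragment number that the peak caller expected from the FA0 library around the summit. It is not the FA0 pileup at the summit itself. Its lowest value, 1.60, was a floor shared by 36.5% of all peaks, so it need not reflect FA0 signal around the summit. Intervals in brackets are exact Poisson 95% intervals of the pileup, or of the fold with the background taken as exact. They cover counting error only, since fragments amplified by PCR and carrying no molecular identifiers are not independent molecules. There was 1 IP library a condition, so no replicate checks any difference, and differences between the libraries and between the conditions cannot be told apart. Across the series pileups ran from 8 to 265, library totals were not analysed here, and the lowest −log10 q listed was 1.31, where q is the p-value of the peak caller after its adjustment over the genome and larger −log10 values are stronger calls. Since only differences are listed, the table could not test the stem cell label. Beside 4.75% of all protein-coding genes, a promoter peak was found for 7 of 12 mESC markers (among them Pou5f1, Nanog and Sox2, pileups 43 to 143), 1 of 6 trophoblast markers, and 0 of 8 feeder fibroblast, 0 of 7 endoderm and mesoderm and 0 of 8 neural progenitor markers. By position, 3 of 6 trophoblast and 1 of 8 neural progenitor markers had a peak inside or within 20 kb, against 18.5% of all protein-coding genes. A marker without a peak may carry H3K27ac equally in FA0 and FA4.

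Ptch1 had the most listed regions of the 3 genes, and FA0 was the lower library at each, as the calling of the table requires. H3K27ac regions that did not differ between the libraries are not listed, so these are not counts of all H3K27ac regions. Its gene spans 65.1 kb of the minus strand (chr13:63508328-63573460, mm10), and all 9 peaks listed under its symbol lay inside it, over 51.1 kb. FA0 backgrounds were 5.52 to 53.5 fragments (median 9.79), against FA4 pileups of 21 to 103 (median 30). Folds lay between 1.82 and 3.88, with a median of 3.04. The 9 regions covered 3836 bp, or 5.89% of the gene. A peak under its own symbol was found for 9.28% of 21896 protein-coding genes, and 9 or more for 0.00913%, that is for Ptch1 and Jarid2 alone. Jarid2, a polycomb accessory gene of 190.9 kb, had just 2 of its 9 peaks inside its borders. By position, Ptch1 shared the highest number inside a gene with Dpp10 and Gse1, at 9 each. Dpp10 is 1514 kb long and Gse1 352.9 kb, so their peaks were spread at 0.0595 and 0.255 per 10 kb, against 1.38 per 10 kb in Ptch1. Closer to Ptch1 in length, Nrd1 (61.1 kb) and Actn4 (69.1 kb) had 0.98 and 0.72 per 10 kb. The short gene Gli1 had more than Ptch1, at 1.71 per 10 kb.

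The tallest Ptch1 regions were a pair just downstream of an inner start site of the gene, at position 63565735, which lies 7.72 kb inside the outer border in RefSeq. The authors' annotation placed a start inside each of them, at 63565274 and 63563815. The peak nearer this start (chr13:63564825-63565334) had an FA0 background of 32.5 and an FA4 pileup of 103 (84.1 to 125), a fold of 3.11 (2.54 to 3.76). It ranked 49 of 4088 by −log10 q, at 17.2, and its near edge stood 401 bp from the start. Its neighbour 658 bp further into the gene (chr13:63563467-63564166) had an FA0 background of 53.5 and an FA4 pileup of 98 (79.6 to 119). The fold there was 1.82 (1.48 to 2.21), the smallest of the 13 regions, on a −log10 q of 3.71. The pair thus had FA4 pileups with overlapping intervals. Their fold intervals did not overlap, but these take the FA0 background as exact and leave out its counting error. The region with the smaller fold was the one with the higher FA0 background, as the recovery of the background requires at close pileups. Among the 1065 peaks annotated within 1 kb of a start site, the background of that region was higher than 98.8% and its fold higher than 3.57%. For the taller region these shares were 86.3% for background and 57.7% for fold.

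At the outer border of the gene a smaller pair stood near the start at position 63573460. The region closest to it (chr13:63572694-63572984) had an FA0 background of 9.79 and an FA4 pileup of 30 (20.2 to 42.8), a fold of 2.87 (1.97 to 4.06). The next one, 275 bp away (chr13:63572085-63572418), had an FA0 background of 5.52 and an FA4 pileup of 22 (13.8 to 33.3), a fold of 3.53 (2.27 to 5.26). Pileups at the outer start were thus below those at the inner start, with no overlap of the intervals, while both fold intervals of the outer pair included the 3.11 of the tallest region.

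The inner start of Ptch1 is the one whose promoter sequence was at hand. It is shown because it adjoins the strongest hedgehog region of the table, and beside it stand the promoters of Mycn and Gsk3b, the only others of the 48 hedgehog genes with a tabulated promoter window that had a peak within 1 kb of it. Each is the 250 bases before the start (RefSeq, GRCm38.p6, the assembly of mm10), read 5′ to 3′ on the gene's strand: chr13:63565736-63565985 on the minus strand for Ptch1, chr12:12941837-12942086 on the minus strand for Mycn and chr16:38088751-38089000 on the plus strand for Gsk3b. Capitals mark GGGCGG, the GC box, or its reverse complement CCGCCC.
Ptch1: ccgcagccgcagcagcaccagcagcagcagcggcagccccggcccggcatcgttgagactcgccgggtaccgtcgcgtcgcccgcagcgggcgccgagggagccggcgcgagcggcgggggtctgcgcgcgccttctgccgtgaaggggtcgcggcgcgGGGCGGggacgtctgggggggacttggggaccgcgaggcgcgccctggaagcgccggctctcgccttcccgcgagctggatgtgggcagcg
Mycn: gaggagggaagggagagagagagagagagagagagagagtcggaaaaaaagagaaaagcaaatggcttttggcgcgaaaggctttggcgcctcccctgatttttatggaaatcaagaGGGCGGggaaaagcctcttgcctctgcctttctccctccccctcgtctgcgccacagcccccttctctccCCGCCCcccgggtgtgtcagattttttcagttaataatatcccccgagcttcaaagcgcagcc
Gsk3b: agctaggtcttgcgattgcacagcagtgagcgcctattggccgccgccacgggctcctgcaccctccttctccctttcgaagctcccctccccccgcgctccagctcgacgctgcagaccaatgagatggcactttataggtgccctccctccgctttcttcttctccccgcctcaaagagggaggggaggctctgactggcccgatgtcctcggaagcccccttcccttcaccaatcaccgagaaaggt

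The Ptch1 promoter was the richest of these in G and C, at 78.4%, above 98.1% of the 32851 promoter windows of the RefSeq table, whose median was 52.4%. Its ratio of observed to expected CpG was 1.08, above 97.3% of windows, with a table median of 0.374. Mycn had 54.8% G and C and a CpG ratio of 0.586, and Gsk3b had 62.0% and 0.662. The GC box, searched as GGGCGG on both strands, occurred 1 time in Ptch1, 2 times in Mycn and 0 times in Gsk3b, and in 32.7% of all windows. The Gli consensus GACCACCCA and its core CCACCCA, searched on both strands, had no match in any of the 3 windows. They occurred in 0.225% and 8.11% of all windows, and every window with the first also holds the second. CCAAT, the CCAAT box, occurred 3 times in Gsk3b and not in Ptch1 or Mycn (33.8% of windows), and ATTTGCAT, the octamer, in none of the 3 (1.6%). These are matches of letters in windows that lay 402 bp (Ptch1), 503 bp (Mycn) and 14 bp (Gsk3b) from the nearest peak, and the peaks themselves were not searched.

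**Figure D1:**
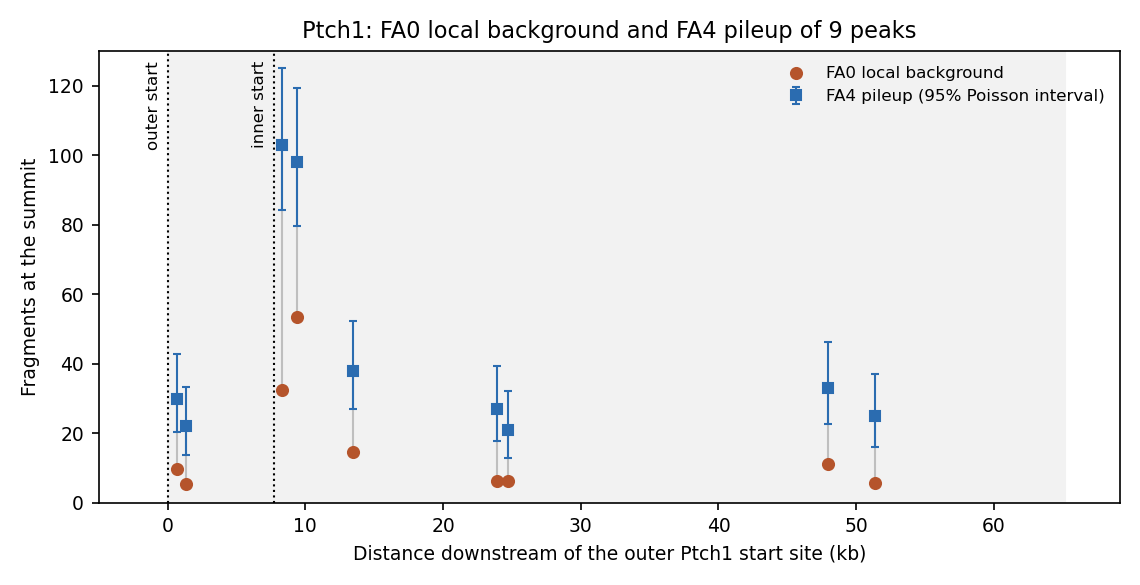
FA0 local background (circles) and FA4 pileup (squares, with exact Poisson 95% intervals) in fragments at the summit of the 9 Ptch1 peaks, by distance downstream of the outer start in kb, with the gene shaded and both RefSeq start sites dotted. The pair after the inner start has FA4 pileups of 103 and 98, and the other 7 peaks have 21 to 38, with FA0 backgrounds of 5.52 to 14.5.

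The remaining 5 Ptch1 regions lay in the body of the gene and were low, with heights close to each other. FA0 backgrounds there ran from 5.71 to 14.5, FA4 pileups from 21 to 38 and folds from 2.52 to 3.88. Intron 2 of the annotated transcript held 3 of them. The first (chr13:63559809-63560154) had an FA0 background of 14.5 and an FA4 pileup of 38 (26.9 to 52.2), with a fold of 2.52 (1.80 to 3.43). Deeper in that intron, chr13:63549399-63549725 had an FA0 background of 6.32 and an FA4 pileup of 27 (17.8 to 39.3), with a fold of 3.83 (2.57 to 5.51). Just 588 bp away, chr13:63548520-63548810 had an FA0 background of 6.23 and an FA4 pileup of 21 (13.0 to 32.1), with a fold of 3.04 (1.94 to 4.58). Of the 9, this one had the lowest −log10 q, 2.50, and the other 8 reached at least 3.

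Far into the gene, 1 region was annotated as 3′ UTR and 1 as intron 18. The 3′ UTR region (chr13:63524908-63525574) was 667 bp wide, with an FA0 background of 11.2 and an FA4 pileup of 33 (22.7 to 46.3), a fold of 2.78 (1.94 to 3.87). The intron 18 region (chr13:63521855-63522224) had an FA0 background of 5.71 and an FA4 pileup of 25 (16.2 to 36.9), and its fold of 3.88 (2.56 to 5.65) was the largest in Ptch1. The fold intervals of all 5 regions in the gene body overlapped, so no order among them was detectable at this depth. As members of their class they were tall: the 4 intronic pileups exceeded those of 88.3% to 96.0% of the 1107 intronic peaks, whose median pileup was 11 and median FA0 background 1.67.

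Gli1, whose product carries the hedgehog signal to target genes, had a pair of listed regions at its start. Their FA0 backgrounds lay below their FA4 pileups, as the calling of the table requires. The gene spans 11.7 kb on the minus strand (chr10:127329882-127341579), and the pair, 415 bp apart, covered 9.17% of it. The region nearer the start (chr10:127340330-127341004), 675 bp wide, lay 575 to 1249 bp downstream of the RefSeq start. It had an FA0 background of 32.0 and an FA4 pileup of 74 (58.1 to 92.9), a fold of 2.27 (1.79 to 2.85), with −log10 q 5.72. The other (chr10:127339517-127339914) lay 1665 to 2062 bp downstream of that start and 45 bp into a shorter transcript that the authors' annotation used. It had an FA0 background of 24.3 and an FA4 pileup of 78 (61.7 to 97.3), a fold of 3.12 (2.47 to 3.88), and ranked 104 of 4088 with a −log10 q of 12.6. Pileups of the pair overlapped in their intervals, and so did the folds. In this pair, as in the inner pair of Ptch1, the region of higher FA0 background was wider (675 and 700 bp, against 398 and 510 bp). It also had the smaller fold, which follows from close pileups, since the background was recovered from pileup and fold.

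The peak of Mars1, which encodes a methionyl-tRNA synthetase, entered by position, since it lies 18.2 kb from the border of Gli1. It sat 17 bp from a start of Mars1 itself (chr10:127311326-127311661), with an FA0 background of 10.9 and an FA4 pileup of 36 (25.2 to 49.8), a fold of 3.10 (2.19 to 4.25). Just outside the 20-kb limit, at 24.8 kb from Gli1, an intronic region of Mars1 had an FA0 background of 5.25, an FA4 pileup of 18 and a fold of 3.04. On the other side of Gli1 the nearest region was a promoter peak of R3hdm2 at 40.1 kb, with an FA0 background of 15.3, an FA4 pileup of 39 and a fold of 2.46. A limit of 50 kb would have admitted these as well, for 15 regions.

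Cdon, the co-receptor, differed in kind: its only region was low beside those of Ptch1 and Gli1 and lay outside the gene. Cdon spans 86.1 kb of the plus strand (chr9:35421528-35507652) and held no peak. The distal intergenic region (chr9:35405632-35405988) ended 15.5 kb upstream of the outer RefSeq start of the gene. An inner start, the one with a tabulated promoter window, at position 35452076, lay 46.1 kb from the region. The Cdon region had an FA0 background of 1.60, the lowest in the table and a floor shared by 36.5% of all peaks. A fold on that floor need not be a ratio to local FA0 signal. The region had an FA4 pileup of 13 (6.92 to 22.2), with a fold of 5.38 (3.04 to 8.93) and −log10 q 4.47. By −log10 q it stood above 78.2% of all peaks and above 6 of the 9 Ptch1 regions. Its fold was the largest of the 13 regions, on their smallest pileup, and the fold interval overlapped those of all folds above 3 given for Ptch1 and Gli1. The next regions on either side were 137 and 500.0 kb from the gene, each with an FA0 background of 1.60 and an FA4 pileup of 9.

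**Figure D2:**
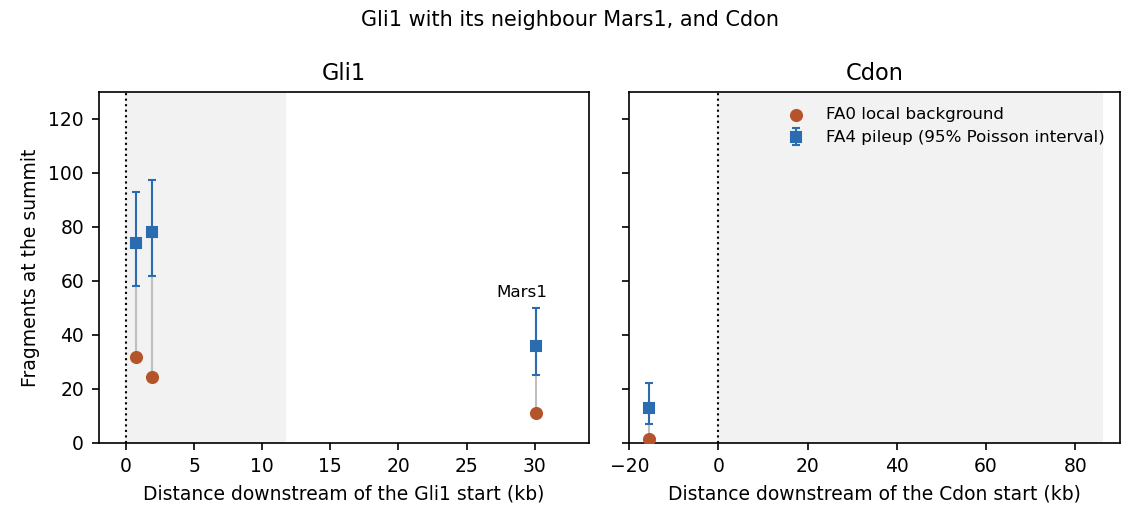
FA0 local background (circles) and FA4 pileup (squares, with exact Poisson 95% intervals) in fragments at the summit, by distance downstream of the outer RefSeq start in kb, for Gli1 with its neighbour Mars1 (left) and Cdon (right), genes shaded. Gli1 has FA4 pileups of 74 and 78 over FA0 backgrounds of 32.0 and 24.3, and the Cdon region, upstream of the shaded gene, has an FA4 pileup of 13 over an FA0 background of 1.60.

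Set beside the whole table, the 13 regions were taller and had smaller folds than most. Their median FA0 background was 10.9, their median FA4 pileup 33 and their median fold 3.10, against 1.94, 12 and 3.84 over the other 4075 peaks. Of the 13, 7 were promoter regions (37.6% of all peaks) and 6 of the 7 stood at most 1 kb from a start site (26.1% of all peaks). Those 6 had a median FA0 background of 28.2, a median FA4 pileup of 76 and a median fold of 2.99, and all 1065 peaks of that class had 16.2, 44 and 2.85. A −log10 q of at least 3 was reached by 12 of the 13, against 46.7% of all peaks. The lowest background of the table was shared by 1 of the 13, the Cdon region, and by 36.5% of all peaks. The members came in close pairs: 8 of 13 had another peak within 1 kb, against 6.9% of all peaks, 15.4% of those within 1 kb of a start site and 2.44% of intronic ones. Regions of 1 gene come from the same libraries and neighbouring DNA and are not replicates of each other. By the Poisson calling of the table a low background needs a larger fold to be listed than a high one, so the folds of Cdon and of the Ptch1 promoter are not on an equal footing.

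**Figure D3:**
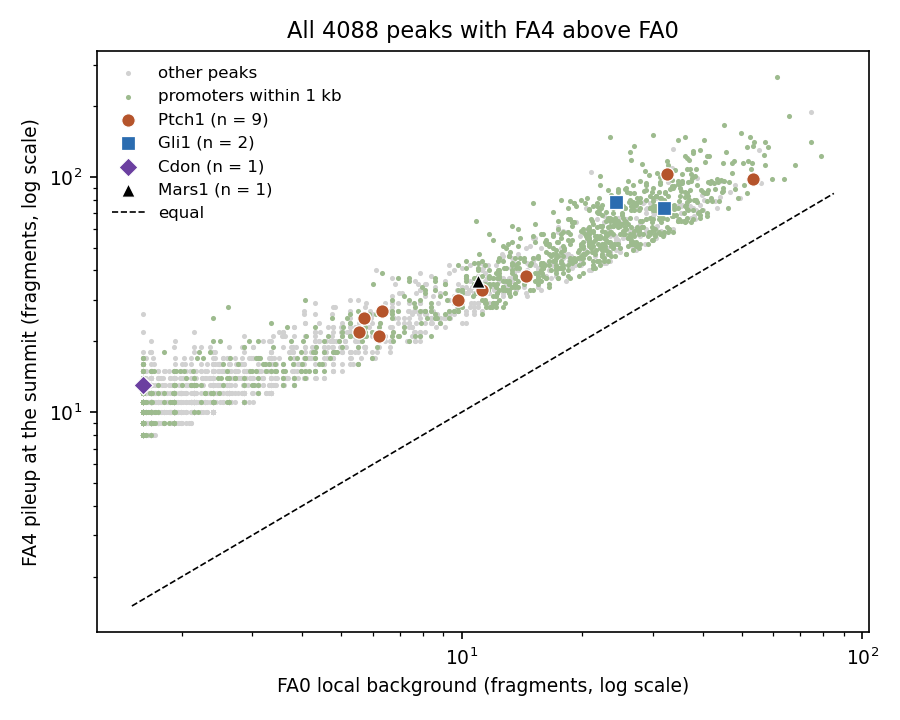
FA4 pileup against FA0 local background, in fragments on log scales, for all 4088 peaks, with peaks within 1 kb of a start site in green and the regions of Ptch1, Gli1, Cdon and Mars1 marked; the dashed line is equality. Every point lies above the line, as the calling of the table requires, and the members run from the Cdon region (background 1.60, pileup 13) to the Ptch1 inner pair (32.5 and 53.5, pileups 103 and 98).

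The wider pathway was read from 64 hedgehog genes grouped by role, and most of it had no listed region. A peak under its own symbol was found for 10 genes (15.6%, exact binomial 95% interval 7.76 to 26.9), and the background over all protein-coding genes was 9.28%. Without Ptch1, Gli1 and Cdon, whose peaks chose them, 7 of 61 genes (11.5%) had one, a share near that background. The intervals given for the 64 genes do not allow for that choice. A promoter peak was found for 6 of 64 genes (9.38%, interval 3.52 to 19.3), or for 4 of the 61 (6.56%), against 4.75% of all genes. Because peaks are listed under the nearest start site, the genes were also searched by position. A peak inside the gene was found for 11 of 64, or for 9 of the 61 (14.8%), against 8.89% of all genes. A peak inside or within 20 kb was found for 15 of 64 (23.4%), or for 12 of the 61 (19.7%), against 18.5% of all genes, and 49 had none. With the limit at 50 kb the count was 21 of 64, or 18 of the 61 (29.5%), against 28.3%, and with −log10 q of at least 3 under the gene's own symbol it was 7 of 64, or 4 of the 61 (6.56%), against 4.84%.

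**Figure D4:**
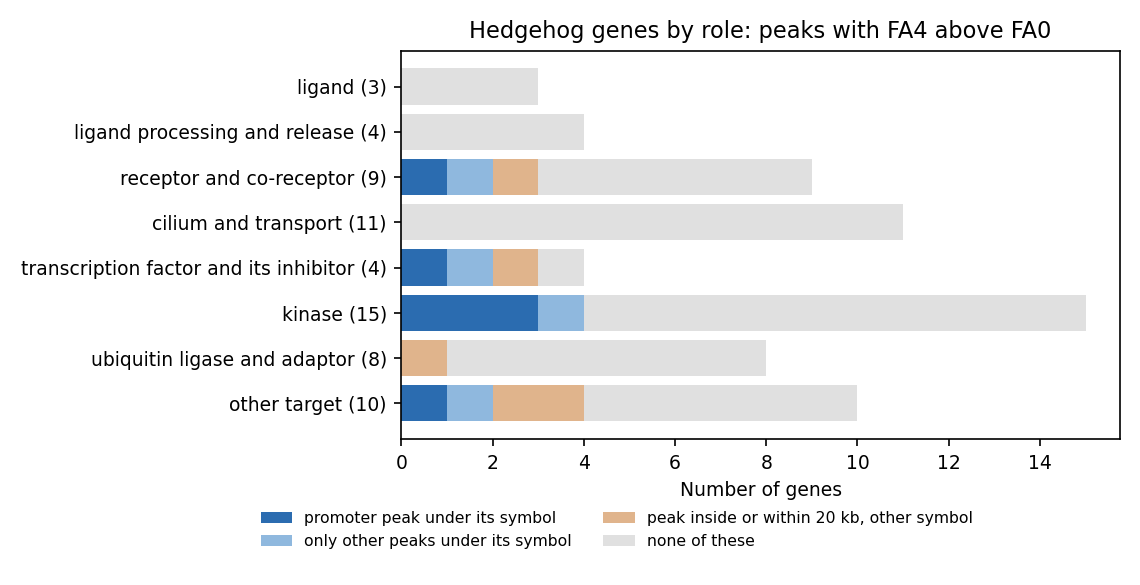
Number of hedgehog genes by role (group sizes in parentheses) that had a promoter peak under their symbol, other peaks under their symbol only, a peak of another symbol inside or within 20 kb, or none of these, where FA4 exceeded FA0. Ligands, ligand processing and cilium genes have none, and kinases (4 of 15) and other targets (4 of 10) have the most by count. Over all protein-coding genes, 18.5% had a peak inside or within 20 kb.

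At the top of the pathway no region was listed inside or within 20 kb of any of the 3 ligands Shh, Ihh and Dhh or the 4 genes of ligand processing and release. Over all protein-coding genes the share with such a region was 18.5%, so small groups can have none. Among receptors and co-receptors, Ptch1 and Cdon had peaks under their symbols, while Smo, Boc, Gas1, Hhip and Gpr161 had none by symbol or position. Lrp2, an endocytic receptor that binds Shh, had a region 9.10 kb away that is listed under Dhrs9, with an FA0 background of 1.62, an FA4 pileup of 12 and a fold of 4.95. None of the 11 genes of cilium and transport, among them Kif7, Ift88 and Rab23, had a region. The primary cilium is where Smo and the Gli proteins meet.

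Among the 4 genes of the Gli factors and their inhibitor, Gli3 alone had no region. Sufu, which holds Gli proteins in check, had a 3′ UTR region (chr19:46487452-46487730) with an FA0 background of 4.99, an FA4 pileup of 23 (14.6 to 34.5) and a fold of 4.00. A second region 13.0 kb from Sufu, in an intron of Actr1a, had an FA0 background of 1.69, an FA4 pileup of 17 (9.90 to 27.2) and a fold of 6.69. Gli2, the main activator in the embryo, had no peak under its symbol but 2 weak ones inside the gene, listed under Gm28467 and Mir6346. They had FA0 backgrounds of 3.25 and 4.09, FA4 pileups of 12 and 14 and folds of 3.06 and 2.95, and their −log10 q values of 1.41 and 1.53 were near the lowest in the table. A further region under Gm28467, 14.1 kb from Gli2, had an FA0 background of 1.83, an FA4 pileup of 12 and a fold of 4.59. Gli2 regions were thus far below those of Gli1 in pileup, with no overlap of the intervals (6.20 to 21.0 and 7.65 to 23.5 in Gli2).

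The 15 kinases, which act on Gli proteins and Smo, form the largest role. A peak under its own symbol was found for 4 of them (26.7%), a small count, against 9.28% of all protein-coding genes. Csnk1a1, casein kinase 1 alpha, had 2 promoter regions, with FA0 backgrounds of 20.1 and 29.8, FA4 pileups of 53 and 59 and folds of 2.57 and 1.95. Gsk3b, glycogen synthase kinase 3 beta, had a promoter region (chr16:38088450-38088737) with an FA0 background of 9.31, an FA4 pileup of 25 and a fold of 2.52. Its −log10 q was 1.92, and 2 further regions in its introns, 1 of them listed under Gm27931, had FA0 backgrounds of 1.60 and FA4 pileups of 10 and 8. Prkacb, a catalytic subunit of protein kinase A, had a promoter region of FA0 background 1.71, FA4 pileup 9 and fold 3.69, and Csnk1d an intronic one of background 2.86, pileup 13 and fold 3.62. The other 11 of 15 kinases had none. Of these kinase regions, those of Csnk1a1 had backgrounds and pileups nearest to Gli1, and the rest were lower.

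Among 8 ubiquitin ligase and adaptor genes, Numb alone had a region within reach, 19.3 kb away under Papln, with an FA0 background of 1.60 and an FA4 pileup of 11. Of 10 other targets, Mycn, a proliferation gene, had a promoter region (chr12:12941002-12941334) with an FA0 background of 22.7, an FA4 pileup of 55 (41.4 to 71.6) and a fold of 2.37. Sfrp1, a secreted inhibitor of Wnt signalling, had an intronic region with an FA0 background of 2.86, an FA4 pileup of 15 and a fold of 4.14. Ccnd2, a cyclin, was near a promoter region of Tigar, 15.7 kb away, with an FA0 background of 12.4, an FA4 pileup of 40 and a fold of 3.06. Bcl2, an inhibitor of cell death, had an intronic region listed under Gm37053, with an FA0 background of 1.60 and an FA4 pileup of 11. The ventral neural tube targets Foxa2, Nkx2-2, Nkx6-1 and Olig2 had no region inside or within 20 kb, nor had Ccnd1 or Foxf1.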

How the data were processed

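H3K27ac ChIP-seq was made from chromatin of Sv129 mESCs that had been digested enzymatically, with 1 IP and 1 input library each for FA0 and FA4 (4 libraries). Input libraries were not analysed here. Per the submitters' processing notes the reads passed through bcl2fastq 2.17, Bowtie 1.1.2 and MACS2 2.1.0 on mm10. For the aligner and caller settings and the annotation tool, details are not given in the sources used here. Both tables that the authors deposited were read. They hold 4088 peaks and their 1538 promoter peaks, which are identical in both. The pileup signal was deposited by the authors in whole fragments, unscaled, so its size depends on the depth of the library. The fold ratio and the −log10 p-value and q-value were deposited by the authors as MACS2 gives them against its local background. Peak widths and distances to start sites were deposited in bp.

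From these values the FA0 local background was recovered by dividing the pileup plus 1 by the fold and subtracting 1. MACS2 by default takes the largest of several local estimates of the control, scaled to the other library. As a check, a Poisson tail of the pileup on this background was computed for each peak, and it came within 0.01 of the deposited −log10 p-value at all 4088. A background was called the lowest of the table if it exceeded the minimum by under 0.01.

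Genes were taken from RefSeq (GRCm38.p6), where 2021 of 2044 protein-coding symbols matched. Promoters reach 3 kb from a start site, as the authors annotated them. The text names all member regions, every gene of the 64-gene hedgehog list with a peak by symbol or within 20 kb, the genes with at least as many peaks as Ptch1, and for each of Ptch1, Gli1 and Cdon the 3 genes whose strongest peak of the same class was nearest in log2 pileup and log2 fold. Members, lists and rules were chosen with earlier results of these data known. Alternatives were stricter −log10 q (2 and 3) and fold (3), other gene limits (symbol only, inside, 50 kb), other overlap rules, promoters within 1 kb, and folds with no 1 added. The search of peaks for Gli motifs was not run, since no genome sequence was used here. The steps were tested on simulated peaks. Scripts ran in Python 3.11.15 with numpy 2.4.6, pandas 2.3.3 and scipy 1.17.1, and figures were drawn with matplotlib 3.10.9.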

Additional observations from a re-analysis of the deposited data

How the results depend on the processing

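Of 24 alternatives, 22 left the count or median within 1.5 times its value or its spread. A fold of at least 3 left 8 of the 13 member regions (5 of 9 in Ptch1 and 1 of 2 in Gli1). Over all 4088 peaks the lower quartile of the fold was 3.15, so most of the table passes that limit. A limit of 50 kb in place of the authors' symbols raised the hedgehog genes with a peak to 21 of 64, against 10. The share of all protein-coding genes rose likewise, to 28.3% from 9.28%. With −log10 q of at least 3 there were 12 regions, and with no 1 added to numerator and denominator the median fold was 3.20 in place of 3.10. Leaving out the Mars1 region, an alternative chosen after seeing the data, gave a median fold of 3.08 and a median pileup of 31.5, against 33. No paired analysis was possible because there was 1 library a group. The search of peaks for Gli motifs, over whole peaks or around the summit, was not run. Pileups of 13, as at Cdon, carry a Poisson interval of 6.92 to 22.2, so depth limits low regions most.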

Other observations

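The nearest listed regions on either side of Ptch1 lay far outside the gene. They were 153 kb away in a promoter flank of Fancc, a Fanconi anemia gene, with an FA0 background of 4.57, an FA4 pileup of 20 and a fold of 3.77, and 151 kb away in an intron of Gm47390, with an FA0 background of 7.88, an FA4 pileup of 39 and a fold of 4.51. Chromosome 13, which holds Ptch1, had 22.3 peaks per 100 protein-coding genes, ranking 4 among the autosomes, whose median was 18.4. Chromosomes 10 (Gli1) and 9 (Cdon) had 17.4 and 16.6.

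By pileup and fold of the strongest peak, the genes most like Ptch1 among 1040 others with a promoter peak were Srcap, a chromatin remodeler, Slc3a2, an amino acid transporter subunit, and Srsf1, a splicing factor. Their FA0 backgrounds were 31.3, 34.1 and 30.8 and their folds 3.13, 3.07 and 3.30, at distances of 0.0438, 0.0572 and 0.0888 on the log2 scales. Nearest to Gli1 were Gm16286, Cstf1 and Morf4l1, with FA0 backgrounds of 24.1, 24.6 and 24.4 and FA4 pileups of 78, 77 and 81. The Cdon values were not distinctive: 36 of 1101 genes with a strongest peak outside promoters had the same FA0 background of 1.60 and the same FA4 pileup of 13, the first by name being 1700010B08Rik, AW209491 and Acsl1. Each likeness rests on the same pair of IP libraries.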
